A study of Homo sapiens with 6 samples.

Results

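The genes described here make, sense, carry and destroy adenosine: the deaminases ADA2 and ADA, the ADA-binding surface protein DPP4, the surface enzymes ENTPD1 and NT5E, the receptor ADORA2A, the transporter SLC29A1, and the intracellular enzymes ADK and PNP. Of these 9 genes, 8 are among the 19775 that the array annotation names alone on at least 1 probe set. The other, ADORA2A, shares its only probe set with a read-through transcript. Members were found as every probe set that the annotation pairs with one of these symbols, which gave 20 probe sets. The group was chosen on measured differences between these same arrays, among which ADA2 stood 10th of 12939 tested genes, and was filled in with genes of related function. The differences of these 9 genes between the groups are therefore descriptions and carry no p-value.

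RNA came from the human line MM1.S, grown from multiple myeloma. One group was infected with lentivirus carrying a beta-catenin shRNA and the other with lentivirus carrying a control shRNA (titled pKLO GFP control). Both groups had been sorted for GFP and were grown as 3 cultures each, with 1 Affymetrix array per culture. The labels speak of triplicate cultures and name no separate infections, and they do not say how many hairpins were used here. A difference between the groups thus cannot be told apart from one between 2 infected populations, and its error covers the spread between cultures only. A change in RNA per cell and a change in the share of cells that hold it also cannot be told apart in these bulk samples. Part of the label text speaks of embryos, which goes against the named cell line, and was not used.

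Adenosine signals outside cells and is an intermediate of purine metabolism inside them. Outside, ENTPD1 (CD39) strips phosphates from ATP and ADP, and NT5E (CD73) turns the resulting AMP into adenosine. Adenosine then acts on receptors such as ADORA2A, is deaminated to inosine, or enters cells through SLC29A1 (ENT1), where ADK turns it back into AMP. ADA is the main intracellular deaminase and can dock on DPP4 (CD26) at the surface. ADA2 is a secreted deaminase with a weaker affinity for adenosine, best known from monocytes and macrophages. Inherited loss of ADA causes severe combined immunodeficiency, and loss of ADA2 causes a vasculitis.

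Values are the deposited log2 expression values, which have a floor at 4. Array medians were 5.50 to 5.54 in the knockdown and 5.44 to 5.50 in the controls, and Pearson's r over probe sets was 0.986 to 0.990 between knockdown arrays, 0.980 to 0.983 between control arrays and 0.945 to 0.953 between groups. CTNNB1, the gene of beta-catenin, averaged 6.42 ± 0.10 in knockdown and 7.75 ± 0.08 in control cultures (SD, n = 3 each) on its brightest probe set. A second probe set went the other way, with 6.39 in the knockdown and 6.06 in the controls. It was called higher, by 0.33, in a fit over all probe sets. The third differed by −0.07 and was not called. All 10 plasma cell markers examined, among them SDC1, IRF4 and XBP1, lay above 5.49, the median of all probe sets and the filter used here. The signals of all 10, less an offset of 16 read from the floor, were summed on the linear scale. The sums were 7837 to 8104 in the knockdown and 6983 to 7596 in the controls. Of the 10, 4 were called higher and 3 lower, beside 25.3% and 22% of all tested genes. The largest rises were those of MZB1 (0.82) and SLAMF7 (0.80). Those called lower were TNFRSF17 (−0.32), IRF4 (−0.23) and SDC1 (−0.20). The ribosomal RNA control probe sets averaged 9.63, 10.72 and 11.51 in the knockdown, against 8.78, 8.62 and 10.41 in the controls. On the second the controls spread from 7.48 to 9.96. On the third, control replicate 2 (11.40) lay above knockdown replicate 1 (11.24). The GAPDH control probe sets averaged 12.07, 11.78 and 11.84 in the knockdown, against 12.82, 12.57 and 12.65 in the controls. Those of beta-actin averaged 11.79, 11.21 and 11.70 in the knockdown, against 12.42, 11.75 and 12.28 in the controls. The part of these shifts in the results was not tested.

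The members did not move together. ADA2 was far higher in the knockdown. ADA, PNP and SLC29A1 were lower by less than 1 log2 unit. ADK and ENTPD1 differed by −0.21 and −0.25 and were not called, no probe set of DPP4 or ADORA2A was called, and NT5E was dim, with a higher reading on 3 of its 4 probe sets. A gene entered the gene-level test if its brightest probe set averaged at least 5.49, the median of all probe sets. That left 6 members tested, 2 below the filter (NT5E and DPP4) and 1 (ADORA2A) with no probe set of its own. Of the 6 tested, 1 passed an adjusted p of 0.05 (limma, Benjamini-Hochberg over 12939 genes) in the higher direction, where 25.3% of all tested genes did, and 3 in the lower direction, where 22% did. The median difference was −0.32 over these 6 and 0.05 over all tested genes. The groups did not overlap for 4 of the 6, against 54.4% of all tested genes. Because the contrast was used to choose the group, nothing is read from these counts.

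**Figure D1:**
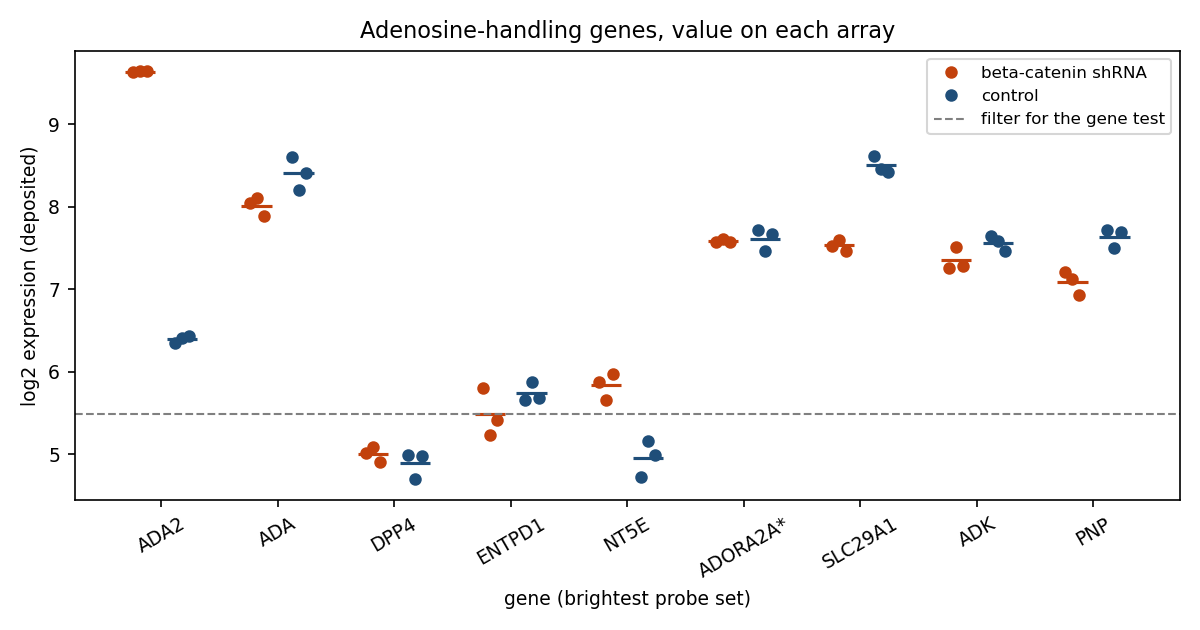
Deposited log2 expression (vertical axis) of each member's brightest probe set on the 3 beta-catenin shRNA arrays (orange, left) and the 3 control arrays (blue, right). Horizontal ticks are group means and the dashed line is the filter at 5.49. Heights of different genes cannot be compared, since each is read by another probe set, and the asterisk marks a probe set shared with a read-through transcript. ADA2 stands at 9.63 to 9.65 against 6.35 to 6.43.

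The deaminases went in opposite directions. ADA2, the secreted deaminase, read 9.63, 9.65 and 9.64 on the knockdown arrays, against 6.35, 6.41 and 6.43 on the control arrays. All 3 knockdown arrays lay far above all 3 control arrays, and the spread within each group was small (SD 0.01 in the knockdown and 0.05 in the controls). The difference was 3.24 on the log2 scale (SE 0.09, 95% interval 3.05 to 3.43), or 9.47-fold. If the floor of 4 stands for an offset of 16 added before the logarithm, the signal without it averaged 782 in the knockdown and 68.3 in the controls, a ratio of 11.4. ADA2 has 1 probe set on this array, so no second reading of the gene was at hand.

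Because ADA2 is best known from monocytes and macrophages, the markers of those cells were read beside it. Of 16 listed, 15 had a probe set and 8 lay above the filter. Over all 15, the summed signal was 454 to 524 in the knockdown and 485 to 508 in the controls. The offset of 16 was taken off before summing, and the 2 ranges overlapped. CD14, the monocyte co-receptor for lipopolysaccharide, was dim in both groups (4.55 in the knockdown and 4.80 in the controls), as were the high-affinity Fc receptor FCGR1A (4.28 in the knockdown and 4.36 in the controls) and the adaptor TYROBP (4.69 in the knockdown and 4.76 in the controls). LYZ, the gene of lysozyme (6.72 in the knockdown and 6.74 in the controls), and the scavenger receptor CD163 (6.48 in the knockdown and 6.65 in the controls) lay above the filter, as did FCER1G, S100A9, S100A12 and MPO, and none of these 6 was called. Within that list CSF1R, the receptor of the macrophage growth factor, was higher by 0.31 (limma, adjusted p = 0.0332) and AIF1, a macrophage calcium-binding protein, fell by 0.57 (limma, adjusted p = 8.63e-04).

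T and NK cell markers were read as well, since such cells carry DPP4 and much ADA. Their summed signal was 1783 to 1909 in the knockdown and 1011 to 1097 in the controls, over 13 genes of which 6 lay above the filter. CD28, a co-stimulatory receptor that myeloma cells can also carry, was the largest single part of it and averaged 10.42 in the knockdown, against 9.10 in the controls (difference 1.32, limma, adjusted p = 1.27e-15). Without CD28, left out after its values were seen, the other 12 markers summed to 475 to 501 in the knockdown and 492 to 552 in the controls. The CD3 chains CD3E and CD3G, part of the T cell receptor complex, lay below the filter. CD3D (6.11 in the knockdown and 6.18 in the controls), CD4 (7.63 in the knockdown and 7.83 in the controls), CD5, CD7 and GNLY lay above it, and none of the 5 was called. The CD28 difference runs alongside that of ADA2, and its part in it was not tested.

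The 3 tested genes whose values lay nearest to ADA2's over the 6 arrays, after setting each gene's control mean to 0, were TRIB1, ASS1 and KLF6. Their root mean square gaps to ADA2 were 0.11, 0.13 and 0.15 log2 units. TRIB1, a pseudokinase, averaged 10.31 in the knockdown and 7.03 in the controls. ASS1, which joins citrulline and aspartate in arginine synthesis, averaged 8.33 in the knockdown and 5.26 in the controls, on either side of the filter. KLF6, a zinc finger transcription factor, averaged 11.53 in the knockdown and 8.49 in the controls. With 2 groups of arrays this likeness is mainly a like-sized step between the groups.

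ADA, the intracellular deaminase, was lower on both of its probe sets. The brighter read 8.05, 8.10 and 7.89 in the knockdown, against 8.61, 8.20 and 8.41 in the controls. The groups did not overlap, but the gap between the highest knockdown array and the lowest control array was small beside the spread among the controls. The difference was −0.39 (SE 0.10, 95% interval −0.60 to −0.18), or 1.31-fold. The second probe set gave −0.30 (SE 0.10). Without control replicate 1, the array with the highest ADA value, the difference was −0.29.

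DPP4, the peptidase on which ADA can dock, was dim. Its 3 probe sets averaged 4.02 to 5.00 in the knockdown and 4.18 to 4.89 in the controls, all below the filter. Their differences were 0.11, −0.01 and −0.16, each with an SE of 0.13 to 0.17. Values this near the floor at 4 compress a change, so they set no useful limit on one.

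**Figure D2:**
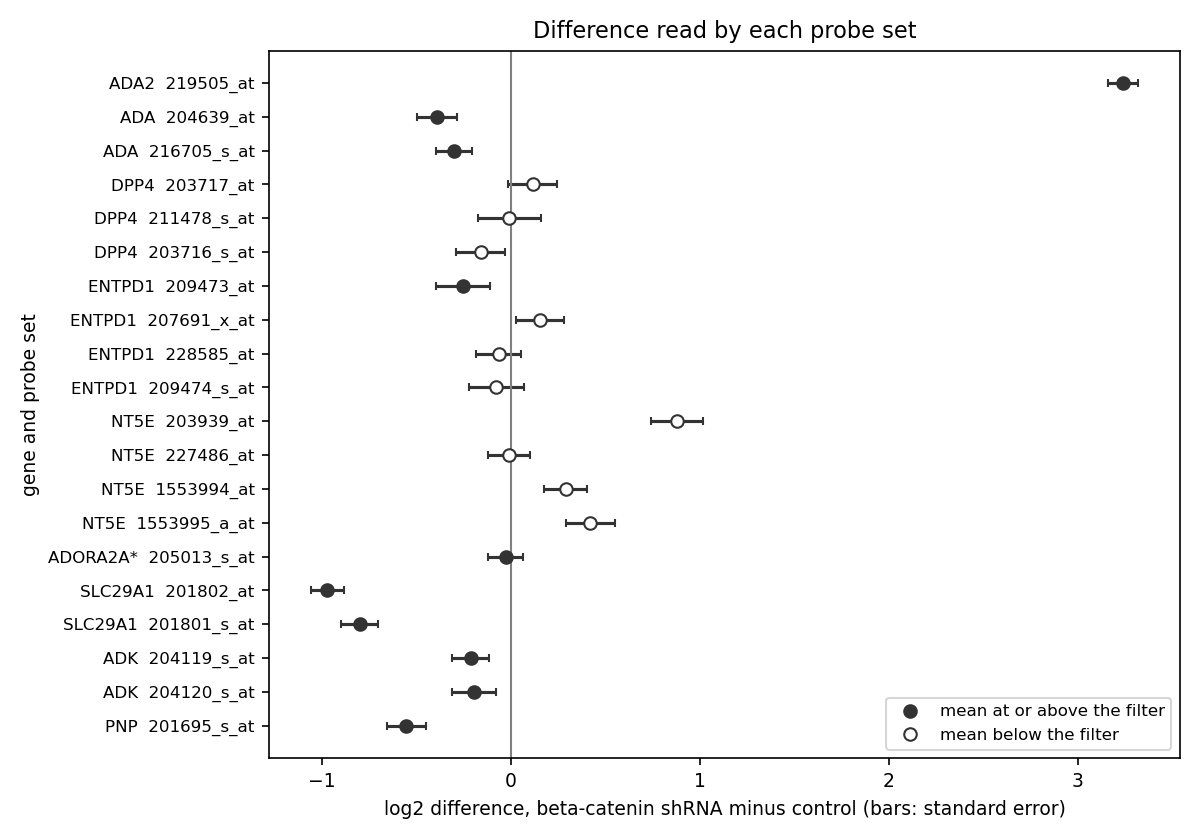
Difference in log2 expression, beta-catenin shRNA minus control (horizontal axis), for each of the 20 probe sets of the members, with the standard error of the fit over all probe sets as bars. Filled points average at or above the filter and open points below it. Both probe sets of ADA, ADK and SLC29A1 lie left of 0, ADA2 lies at 3.24, and those of NT5E run from −0.01 to 0.88.

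Over all 20 probe sets, 10 averaged at or above the filter and 10 below it. In a fit over every probe set on the array, 3 were called higher and 5 lower, 8 in all, where 23.2% of all probe sets were called in either direction. Of the 6 members with several probe sets of their own, the 3 bright ones (ADA, ADK and SLC29A1) had all differences of 1 sign. The other 3 (NT5E, ENTPD1 and DPP4), which had probe sets below the filter, did not.

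Of the enzymes that produce adenosine outside the cell, NT5E was higher on 3 of 4 dim probe sets and ENTPD1 was not called. NT5E, the 5'-nucleotidase that releases adenosine from AMP, read 5.88, 5.66 and 5.97 in the knockdown on the probe set with the highest mean, against 4.72, 5.15 and 4.99 in the controls. Those values did not overlap and differed by 0.88 (SE 0.14). The other 3 probe sets gave 0.42 (SE 0.13), 0.29 (SE 0.11) and −0.01 (SE 0.11), and 2 of the 4 were called in the fit over probe sets. The mean over all 4 differed by 0.40. The brightest averaged 5.40 over the 6 arrays, just below the filter. It lay above the filter in the knockdown and below it in the controls.

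ENTPD1, which degrades ATP and ADP, was just inside the filter, at 5.61 over the 6 arrays. Its brightest probe set read 5.80, 5.24 and 5.42 in the knockdown, against 5.66, 5.88 and 5.68 in the controls. Knockdown replicate 1 lay among the controls and the other 2 knockdown arrays below them. The difference was −0.25 (SE 0.13, 95% interval −0.53 to 0.02) and was not called. Without knockdown replicate 1 it was −0.41 and was called lower. The other 3 probe sets, all below the filter, gave 0.16, −0.06 and −0.08.

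The single probe set paired with ADORA2A, a receptor that raises cyclic AMP, is also paired with the read-through SPECC1L-ADORA2A, so its signal cannot be given to ADORA2A alone. It read 7.58, 7.61 and 7.57 in the knockdown, against 7.72, 7.46 and 7.67 in the controls. All knockdown arrays lay within the range of the controls. The difference was −0.03 (SE 0.09).

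SLC29A1, the equilibrative transporter that carries adenosine and other nucleosides across the plasma membrane, had the lowest difference of the 9 genes. Its brighter probe set read 7.53, 7.60 and 7.47 in the knockdown, against 8.62, 8.46 and 8.43 in the controls. The difference was −0.97 (SE 0.10, 95% interval −1.17 to −0.78), or 1.96-fold. The second probe set read 7.43, 7.61 and 7.32 in the knockdown, against 8.14, 8.31 and 8.31 in the controls, a difference of −0.80 (SE 0.10). On both probe sets every knockdown array lay well below every control array, and the difference ranked 479 from the lowest of all tested genes.

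Inside the cell, PNP was lower and ADK was not called. PNP, which splits inosine and guanosine into base and ribose phosphate, the step after deamination, read 7.20, 7.13 and 6.93 in the knockdown, against 7.72, 7.50 and 7.69 in the controls. The groups did not overlap, and the difference was −0.55 (SE 0.11, 95% interval −0.77 to −0.33), or 1.47-fold, on its only probe set. ADK, the kinase that returns adenosine to AMP, read 7.26, 7.51 and 7.29 in the knockdown, against 7.65, 7.58 and 7.47 in the controls. Knockdown replicate 2 lay within the range of the controls. The difference was −0.21 (SE 0.10, 95% interval −0.43 to 0.0004), and the second probe set gave −0.19 (SE 0.11). ADK was not called as deposited, but was called lower after centring on array medians (−0.27), after cyclic loess (−0.22) and without knockdown replicate 2 (−0.29).

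**Figure D3:**
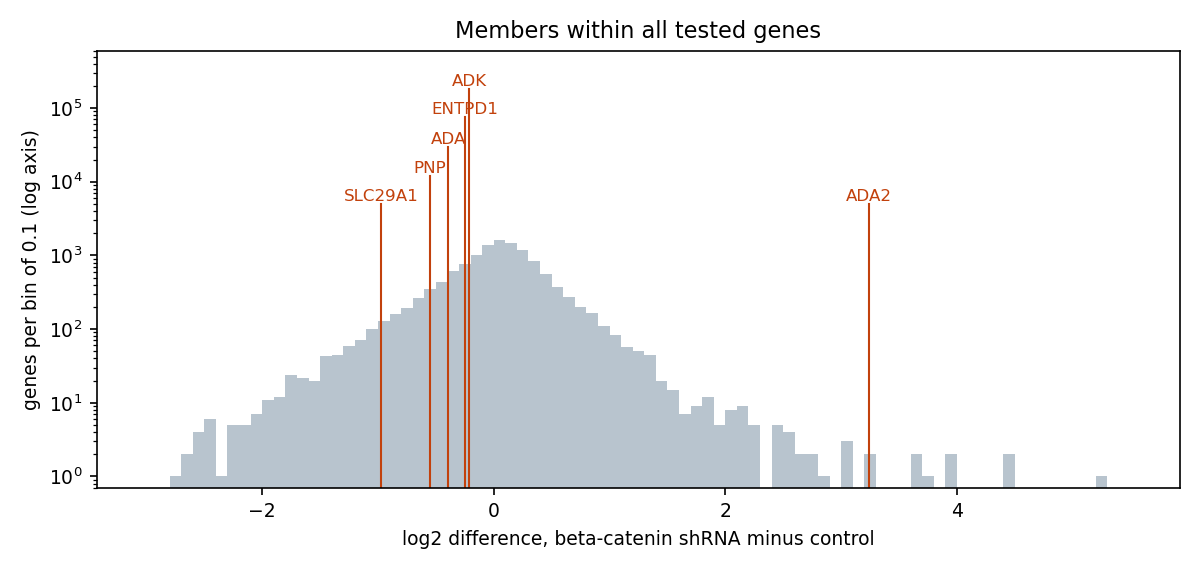
Number of tested genes (vertical axis, log scale) in bins of the log2 difference, beta-catenin shRNA minus control (horizontal axis), for all 12939 tested genes in grey, with the 6 tested members as vertical lines whose height has no meaning. ADA2, at 3.24, lies in the sparse right tail, while the other 5 lie between −0.97 and −0.21.

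Promoter sequences are shown for the 3 members that were called lower and for NT5E, the dim gene with higher readings, so that the starts of genes with opposite readings can be set side by side. They come from RefSeq (GRCh38.p14), which gave 7 of the 9 genes, and run from 250 bases before to 50 bases after an annotated start. No window was at hand for ADA2 or ADORA2A, so neither was searched. SLC29A1 has another annotated start, which held no match and is not shown. Capitals mark matches, on either strand, to CTTTGA (the core bound by TCF/LEF factors, the DNA-binding partners of beta-catenin), CACGTG (an E-box), TGACGTC (a core of the cyclic AMP response element, contained in the full element TGACGTCA) or TGANTCA (AP-1).
ADA promoter, chr20:44651650-44651949, minus strand: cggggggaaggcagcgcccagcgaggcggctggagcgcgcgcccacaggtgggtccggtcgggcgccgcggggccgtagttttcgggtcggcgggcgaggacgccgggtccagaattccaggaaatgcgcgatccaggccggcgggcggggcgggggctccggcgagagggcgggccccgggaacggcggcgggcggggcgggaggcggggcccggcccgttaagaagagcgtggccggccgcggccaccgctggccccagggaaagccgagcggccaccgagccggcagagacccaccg
PNP promoter, chr14:20469156-20469455, plus strand: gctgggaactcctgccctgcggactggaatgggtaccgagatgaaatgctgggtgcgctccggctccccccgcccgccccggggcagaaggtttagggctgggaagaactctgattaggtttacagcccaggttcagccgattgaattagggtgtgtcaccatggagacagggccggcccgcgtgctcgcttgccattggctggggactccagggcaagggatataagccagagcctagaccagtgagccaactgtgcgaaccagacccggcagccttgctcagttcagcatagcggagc
SLC29A1 promoter, chr6:44219365-44219664, plus strand: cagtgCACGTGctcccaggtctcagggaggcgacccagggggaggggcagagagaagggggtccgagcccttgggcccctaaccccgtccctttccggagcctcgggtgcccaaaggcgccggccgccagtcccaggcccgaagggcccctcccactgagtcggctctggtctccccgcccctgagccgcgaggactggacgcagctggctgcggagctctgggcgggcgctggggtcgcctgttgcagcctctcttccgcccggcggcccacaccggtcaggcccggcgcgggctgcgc
NT5E promoter, chr6:85449833-85450132, plus strand: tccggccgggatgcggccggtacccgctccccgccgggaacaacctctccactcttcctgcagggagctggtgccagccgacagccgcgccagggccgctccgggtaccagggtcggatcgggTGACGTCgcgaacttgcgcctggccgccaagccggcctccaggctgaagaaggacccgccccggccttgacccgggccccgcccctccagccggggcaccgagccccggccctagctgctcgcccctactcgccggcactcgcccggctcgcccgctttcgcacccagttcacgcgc
The ADA and PNP windows held none of these letters. The SLC29A1 window held CACGTG, found in 7.26% of 35116 promoter windows of the same length, and the NT5E window held TGACGTC, found in 3.45%. Of the windows not shown, that of DPP4 held the E-box and the cyclic AMP response element core. CTTTGA, found in 12.9% of all windows, was in none of the 4 shown but in 2 of the 5 ENTPD1 windows. TGANTCA was found in 7.71% and TGACGTCA in 1.85% of all windows. A match is a run of letters and not a measured site.

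Other genes of adenosine and nucleotide handling were taken from lists made by function, 93 genes in all, of which 88 had a probe set of their own and 73 were tested. Of these, 28 rose (38.4%, against 25.3% of all tested genes), 13 fell (17.8%, against 22%) and 32 were not called. Of the 28, NT5M, FAP and ADCY6 averaged below the filter in the controls and passed it only through the knockdown, so they had to differ. The lists were made with earlier results of these data known, and nothing is read from these shares. The median difference was 0.15, against 0.05 over all tested genes. The receptor list holds other genes named ADORA, P2RX or P2RY. Such a name does not establish a nucleotide ligand, as for P2RY8 and P2RY10. Of this list, 9 of the 13 genes on the array were tested and 8 of these rose, where 25.3% of all tested genes did. The remaining one, P2RY10, differed by 0.12, and ADORA2B, P2RY1, P2RY2 and P2RY14 lay below the filter. In the fit over probe sets, P2RY14 (−0.43) and the dimmer probe set of P2RY1 (−0.47) were called lower. P2RX1, an ATP-gated cation channel, read 8.59, 8.75 and 8.62 in the knockdown, against 5.63, 5.82 and 6.24 in the controls. It rose by 2.76 (SE 0.12, 6.78-fold, limma, adjusted p = 2.01e-17). The related channels P2RX4 and P2RX7 rose by 1.01 (limma, adjusted p = 2.56e-07) and 0.61 (limma, adjusted p = 3.99e-05). The adenosine receptors ADORA1 and ADORA3, named after their values were seen, rose by 0.37 (limma, adjusted p = 0.0127) and 0.33 (limma, adjusted p = 0.0172). Neither was called without knockdown replicate 3. ADORA1 was also lost without control replicate 1, and ADORA3 without control replicate 3, after cyclic loess and when its probe sets were averaged. Their other probe sets, below the filter, gave 0.10 (SE 0.11) for ADORA1 and −0.13 (SE 0.14) for ADORA3 and were not called.

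Purine salvage genes went both ways, with 3 higher, 5 lower and 6 not called of 14, beside 25.3% higher and 22% lower over all tested genes. HPRT1, which salvages the hypoxanthine that PNP releases, read 8.10, 8.10 and 7.87 in the knockdown, against 9.34, 9.26 and 9.23 in the controls, and fell by 1.25 (SE 0.09, limma, adjusted p = 1.25e-12). DCK, the kinase of deoxynucleosides including deoxyadenosine, fell by 1.06 (SE 0.11, limma, adjusted p = 1.26e-09). AK3, a mitochondrial adenylate kinase, rose by 0.71 (SE 0.09, limma, adjusted p = 1.79e-07).

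Of 12 intracellular nucleotidases and AMP deaminases, 4 rose, 1 fell and 7 were not called, beside 25.3% higher and 22% lower over all tested genes. ENTPD4, a Golgi and lysosomal nucleotidase, rose by 0.87 and AMPD3, an AMP deaminase, by 0.69. The other probe sets of ENTPD4 gave 0.16 (SE 0.16) and 0.04 (SE 0.16) and were not called. NT5M, a mitochondrial nucleotidase and one of the 4, averaged 5.80 in the knockdown and 5.29 in the controls, on either side of the filter. Of 4 extracellular nucleotide enzymes, CD38, which consumes NAD and can feed adenosine production on myeloma cells, rose by 0.39 (limma, adjusted p = 0.00228) and 3 were not called. Of 7 other nucleoside transporters and ATP release genes tested, PANX2 rose by 0.35 and 6 were not called. The equilibrative relatives of SLC29A1 were among those not called: SLC29A2 differed by 0.08 (SE 0.12), SLC29A3 by 0.25 (SE 0.13) and SLC29A4 by 0.15 (SE 0.11).

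Of 7 other dipeptidyl and prolyl peptidases, grouped with DPP4 by activity, 3 rose and 4 fell. Over all tested genes, 25.3% were higher and 22% lower. FAP, among the 3, averaged 5.69 in the knockdown and 5.29 in the controls, on either side of the filter. DPP4 itself was too dim to test. DPP3 fell by 0.98 and DPP9 by 0.31, and DPP7 rose by 0.52. Of 20 genes of cyclic AMP signalling, through which ADORA2A acts, 8 rose, 3 fell and 9 were not called. The shares over all tested genes were again 25.3% higher and 22% lower. ADCY6, among the 8, averaged 6.14 in the knockdown and 5.25 in the controls, also on either side of the filter. The adenylyl cyclase ADCY7 and the cyclic AMP-responsive modulator CREM rose by 0.93 and 0.91, and the protein kinase A catalytic subunit PRKACB fell by 0.92. The other probe sets of PRKACB gave −0.85, called lower, and 0.13, not called. When probe sets whose names hold _x_ or _s_ were passed over, ADCY7 gave 0.14 and was not called, CREM gave −0.33, and GNAS, the stimulatory G protein subunit, gave −1.35, against 0.20 on its brightest probe set. The GNAS probe set at −1.35 was called lower in the fit over probe sets. The rise of GNAS was not called after centring on array medians, when its probe sets were averaged, or without the trend on intensity. PRKAR2A, a regulatory subunit of protein kinase A, was not called on its brightest probe set (0.05) but was lower on 3 others, by −0.66, −0.66 and −1.08. Both were named after their values were seen. PANX2 (0.08) and DPP9 (−0.01) were not called when their probe sets were averaged, nor was DPP9 without knockdown replicate 3.

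**Figure D4:**
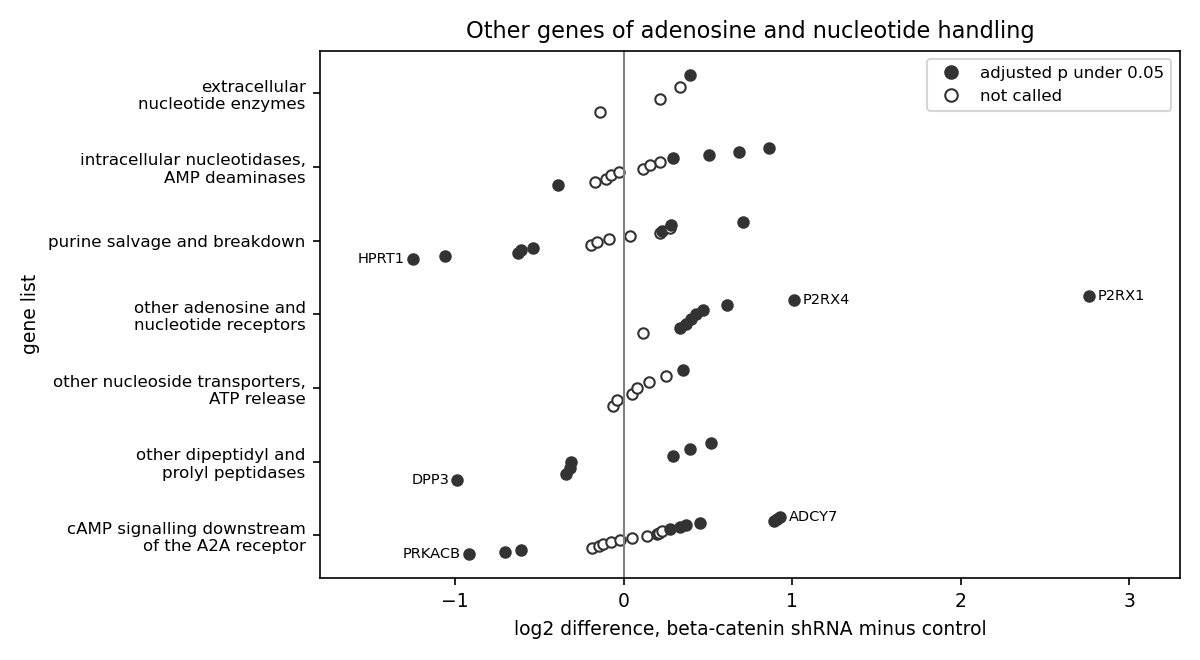
Difference in log2 expression, beta-catenin shRNA minus control (horizontal axis), of the 73 tested genes in 7 lists by function (vertical axis; spread within a list only for legibility). Filled points passed an adjusted p of 0.05 and open points did not. All 9 tested genes of the receptor list lie right of 0, with P2RX1 at 2.76, and the lowest point is HPRT1 at −1.25.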

How the data were processed

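The authors deposited 1 log2 expression value per probe set and array, for 54675 probe sets on 6 arrays. Per the submitters' processing notes, MAS5 and PLIER were named, without versions or roles, and the sources used here do not give the normalization between arrays. The floor at 4 was read from the values as an offset of 16 added before the logarithm, which compresses changes of dim probe sets, so folds are on that scale. The values were used without further normalization.

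Left out were 62 control probe sets. The platform annotation gave 41091 of the remaining 54613 probe sets 1 gene symbol, 1801 several and 11721 none here. Of those with 1 symbol, 41037 matched by gene ID a RefSeq table of GRCh38.p14, used for names. A gene was read by its brightest probe set of 1 symbol and tested if that averaged 5.49 or more, the median over the non-control probe sets (12939 of 19775 genes). Knockdown minus control was fitted with limma 3.58.1 under R 4.3.3 (lmFit, eBayes, trend on intensity). Tests were two-sided, Benjamini-Hochberg adjusted, with a threshold of 0.05. Standard errors of tested genes come from this fit. Those of a gene's other probe sets and of genes below the filter come from the same model over all 54613 probe sets. The script was tested on simulated data.

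The members and lists were chosen with earlier results of these data known. Named genes were the members, CTNNB1, up to 3 called genes per list by adjusted p, the 3 genes nearest to ADA2 and markers; others are said to be outside this rule or serve as direct relatives of a member. The number of arrays limits precision. Alternatives changed 1 choice at a time: replicate block, normalization, filter, probe set rule, variance model, offset and leaving out each array. Leaving out an array kept the probe sets and tested genes chosen on all 6, whereas another normalization or offset chose them anew.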

Additional observations from a re-analysis of the deposited data

How the results depend on the processing

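Under 18 alternatives the ADA2 difference was 2.68 to 3.50, and 7 of them cannot move it, since they change the test or the filter or choose among probe sets of which it has 1. It was 3.19 after centring on array medians, 3.50 with an offset of 1 and 2.68 with an offset of 64, each a larger move than the spread between replicates, and 3.22 to 3.26 with 1 array left out. Differences ran from −0.50 to −0.29 for ADA, from −0.62 to −0.43 for PNP, from −1.03 to −0.82 for SLC29A1 and from 0.40 (mean over probe sets) to 1.41 (offset of 1) for NT5E. These are descriptions, since the contrast chose the members. The number of members called was 4 or 5, that of the wider lists 30 to 42 against 41, and that of receptors called higher 5 (filter at the 75th percentile, which left fewer genes) to 8. Without a filter, 1 receptor was called lower. Over all genes 3273 were higher and 2841 lower as deposited, and 2765 and 3316 after centring on array medians.

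The labels number replicates 1 to 3 in both groups without saying that a number marks a shared batch. Deviations of same-numbered arrays from their group means correlated at −0.09, −0.26 and −0.30, and those of other pairs at −0.08 to 0.28. Deviations from a mean of 3 arrays cancel out within a group, so these correlations are tied to one another. They cannot show whether same-numbered arrays shared a batch, and nothing is read from them. With the replicate block the ADA2 difference was 3.24, 4 members and 39 genes of the wider lists were called, and 5494 genes were called in all, against 6114.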

Other observations

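Several nucleotide receptors were too dim to enter the test. Near the floor a change is compressed, so their values set no limit on one. In the fit over probe sets, the receptor P2RY14, which responds to UDP sugars, differed by −0.43 (SE 0.12) and was called lower. The ADP receptor P2RY1 differed by −0.01 (SE 0.13) and −0.47 (SE 0.14) on its 2 probe sets, and the second was called lower. ADORA2B, the low-affinity adenosine receptor that also raises cyclic AMP, differed by 0.16 (SE 0.13). These genes were chosen after their values were seen. AHCY, which releases adenosine from S-adenosylhomocysteine, averaged 8.53 in the knockdown and 9.07 in the controls and fell by 0.54 (SE 0.09, limma, adjusted p = 8.80e-06). It too was chosen after its values were seen.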
